A study of Mus musculus with 16 samples.

Results

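The report covers 10 genes of bone morphogenetic protein (BMP) signaling, followed through 16 RNA sequencing libraries of mouse bone endothelial cells. They were taken by symbol, and by the matching Ensembl gene where a table gave no symbol: the protease gene Bmp1, the ligand genes Bmp2, Bmp4 and Bmp6, the receptor gene Bmpr2, the extracellular modulator gene Bmper, the target genes Id1, Id2 and Id3, and the inhibitor gene Smad6. All 10 were found in each of the 3 expression tables, which list 38926, 21603 and 38926 genes. Values are FPKM, fragments scaled to the length of the transcript and to the number of mapped fragments, so that levels can be set side by side between genes of 1 table.

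All animals were of C57BL/6 background, and the cells were isolated by flow sorting from 3-week-old bone. The first table holds 3 mpEC and 3 bmEC libraries, that is, endothelial cells labelled wildtype from the femoral metaphysis and from the marrow cavity of the diaphysis, sorted by a Cdh5-driven double fluorescent reporter. The second holds 3 control libraries (Yap1flx/flx; Wwtr1flx/flx, Cdh5CreERT2 negative) and 3 libraries labelled ECKO, which carry the same floxed alleles and Cdh5CreERT2, at postnatal day 21, after tamoxifen on days 6 to 8 in the mutants. The third holds 2 Lats2 Cont libraries (Lats2flx/flx, Cdh5CreERT2 negative) and 2 Lats2 cKO libraries (the same allele, Cdh5CreERT2 positive). Cdh5CreERT2 is a tamoxifen-inducible Cre recombinase that is driven by the VE-cadherin promoter and acts in endothelial cells, and the mutants were compared with littermates. The sources used here do not say whether a library was 1 animal or a pool, so the p-values measure the spread between these libraries.

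BMPs are secreted ligands of the transforming growth factor beta family that were named for their ability to induce bone. A ligand brings together type I and type II receptors, the receptors phosphorylate Smad1, Smad5 and Smad9, and these enter the nucleus with Smad4 and switch on target genes such as the Id genes and the inhibitors Smad6 and Smad7. In endothelial cells the pathway acts mainly through the type I receptor Acvrl1, the type II receptor Bmpr2 and the coreceptor endoglin (Eng), and in bone the ligands made by vessels can also act on neighbouring bone cells.

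The targeted genes were read first. Wwtr1, the gene for Taz, measured 10.01, 9.88 and 10.3 FPKM in the control libraries and 15.3, 19.6 and 19.5 FPKM in the libraries labelled ECKO, which goes against the label (log2 difference 0.78, adjusted p = 0.0272, limma), and Yap1 did not pass the test (log2 difference -0.04, adjusted p = 0.934). Lats2 measured 23.4 and 24.0 FPKM in Lats2 Cont and 19.2 in both Lats2 cKO libraries (log2 difference -0.29, adjusted p = 0.125), while an overlapping gene model on the same strand covers 42.4% of the bases in its exons. Wwtr1 was also called higher in Lats2 cKO (log2 difference 0.63, adjusted p = 0.0257, limma). A gene-level FPKM does not see the loss of single exons. In sorted mutant cells the authors reported significantly lower Yap1 and Wwtr1 transcripts by quantitative PCR and significantly lower Lats2 transcripts. They also reported weaker Yap1 immunostaining in the Yap1 and Taz mutants. The reads on genes, recovered approximately from the FPKM steps, came to between 11110277 and 14742796 for each mpEC and bmEC library, between 4881296 and 7155586 in the second table and between 4731838 and 7067048 in the third. All 12 endothelial markers were detected in all 3 tables, beside erythroid markers that summed to 28351 to 60527 FPKM in the first table.

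The genes lie on 7 chromosomes of GRCm38. Bmp1 is at chr14:70474558-70520234 on the minus strand, Bmp2 at chr2:133552159-133562885 on the plus strand, Bmp4 at chr14:46383520-46390669 on the minus strand, Bmp6 at chr13:38345107-38500302 on the plus strand and Bmpr2 at chr1:59763400-59879014 on the plus strand. Bmper is at chr9:23223076-23485200 on the plus strand, Id1 at chr2:152736251-152737410 on the plus strand, Id2 at chr12:25093799-25097140 on the minus strand, Id3 at chr4:136143497-136145755 on the plus strand and Smad6 at chr9:63953076-64022059 on the minus strand. Antisense neighbours cover 3.96% of the exon bases of Bmp4 (Gm15217) and 5.74% of those of Bmp6 (Txndc5), and the strand setting of the counting was not given in the sources used here.

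In the comparison of bmECs with mpECs, which asks how endothelial cells of the marrow cavity differ from those next to the growth plate, 2 members were higher in bmECs (Id2 and Smad6) and 2 were lower (Bmp1 and Id1). These 4 were among 8 members with a mean of at least 1 FPKM, the minimum for the test. Bmp1 reached this minimum only through the mpEC libraries. Over all genes tested, 23.5% were called in either direction (limma, adjusted p under 0.05), 13.0% higher and 10.5% lower. The groups of 5 of the 8 did not overlap, as for 41.3% of all genes tested. The median log2 difference of the 8 was 0.12, and that of all genes tested was -0.00.

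Bmp1 encodes a metalloprotease that trims procollagens and cuts the BMP antagonist chordin. It measured 5.36, 5.26 and 6.66 FPKM in mpECs and 0.582, 0.535 and 0.565 FPKM in bmECs, a ratio of means of 0.0974. All bmEC libraries were far below all mpEC libraries, and the log2 difference was -2.11 (SE 0.13, adjusted p = 4.32e-05, limma). Osteoblast markers moved the same way: 6 of the 8 tested were lower in bmECs, the summed level was 260.4 to 1000.7 FPKM in mpECs and 45.6 to 60.9 FPKM in bmECs, and none of the 10 markers was at 0 in every library. The 6 chondrocyte markers summed to 13.5 to 16.8 FPKM in mpECs and 0.0116 to 0.0682 FPKM in bmECs. Osteoclast markers summed to 28.2 to 48.3 FPKM in mpECs and 12.5 to 17.6 FPKM in bmECs, with both of the 2 tested called lower and Calcr at 0 in every library. The part of these cells in the Bmp1 difference was not tested, and in sorted bulk samples fewer cells of a type and less RNA per cell cannot be told apart.

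The ligand genes were low in both regions. Bmp2 measured 1.59, 2.06 and 1.68 FPKM in mpECs and 2.15, 3.51 and 2.13 FPKM in bmECs, with the groups just apart (log2 difference 0.35, adjusted p = 0.184, limma). Bmp4 measured 3.38, 4.24 and 3.66 FPKM in mpECs and 4.32, 5.56 and 4.20 FPKM in bmECs, and the groups overlapped (log2 difference 0.25, adjusted p = 0.212, limma). Neither ligand passed the test. Bmp6 was under the test minimum, at 0.598 to 1.21 FPKM in mpECs and 0.353 to 0.877 FPKM in bmECs.

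The receptor gene Bmpr2, the type II receptor that carries most BMP signals in endothelium, overlapped between the regions at 2.25, 3.64 and 4.06 FPKM in mpECs and 2.53, 2.77 and 3.13 FPKM in bmECs (log2 difference -0.16, adjusted p = 0.566, limma). Bmper, a secreted protein with chordin-like repeats that binds BMPs, rested on between 0 and 13 reads a library. It measured 0.149, 0.185 and 0.271 FPKM in mpECs and 0, 0 and 0.0672 FPKM in bmECs. It was not tested with the minimum of 1 FPKM, and in the fit without a minimum its adjusted p was 0.04997 (limma, log2 difference -0.23).

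The Id genes encode helix-loop-helix proteins that lack a DNA binding region and hold basic helix-loop-helix factors off DNA. Id1 measured 214.9, 270.2 and 316.6 FPKM in mpECs and 136.1, 182.3 and 153.2 FPKM in bmECs. All bmEC libraries were below all mpEC libraries, and the log2 difference of Id1 was -0.75 (SE 0.16, adjusted p = 0.0118, limma). Id2 moved the other way, from 143.3, 164.7 and 149.0 FPKM in mpECs to 350.9, 367.8 and 350.1 FPKM in bmECs (log2 difference 1.22, SE 0.08, adjusted p = 6.87e-05, limma). The bmEC libraries were all higher by a wide gap, and the ratio of means was 2.34. Id3, the most abundant member in both regions, measured 572.5, 688.6 and 661.7 FPKM in mpECs and 599.8, 655.6 and 647.9 FPKM in bmECs (log2 difference -0.01, SE 0.10, adjusted p = 0.951, limma). Its bmEC values lay inside the mpEC range, and the sign of its difference turned when single libraries were left out.

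Smad6, an inhibitory Smad that is itself a target of the pathway, measured 1.44, 2.10 and 1.51 FPKM in mpECs and 5.16, 5.94 and 4.16 FPKM in bmECs. The lowest bmEC library was above the highest mpEC library, and the log2 difference was 1.18 (SE 0.16, adjusted p = 0.00136, limma), a ratio of means of 3.02. The 4 called members kept their call in each alternative fit in which they were tested, and with stricter thresholds (adjusted p under 0.01 with an absolute log2 difference over 0.5) Id1 lost it. Adipocyte markers moved in the direction of Id2 and Smad6, with sums of 4.99 to 10.2 FPKM in mpECs and 58.4 to 155.7 FPKM in bmECs, both of the 2 tested called higher and Lep at 0 in every library. Their part in the Id2 and Smad6 differences was not tested. Among the 19 tested of 20 immediate early genes, which respond within minutes to growth factors and to cell handling, 3 were called higher and 1 lower in bmECs, with sums of 1209 to 1704 FPKM in mpECs and 1303 to 4091 FPKM in bmECs.

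**Figure D1:**
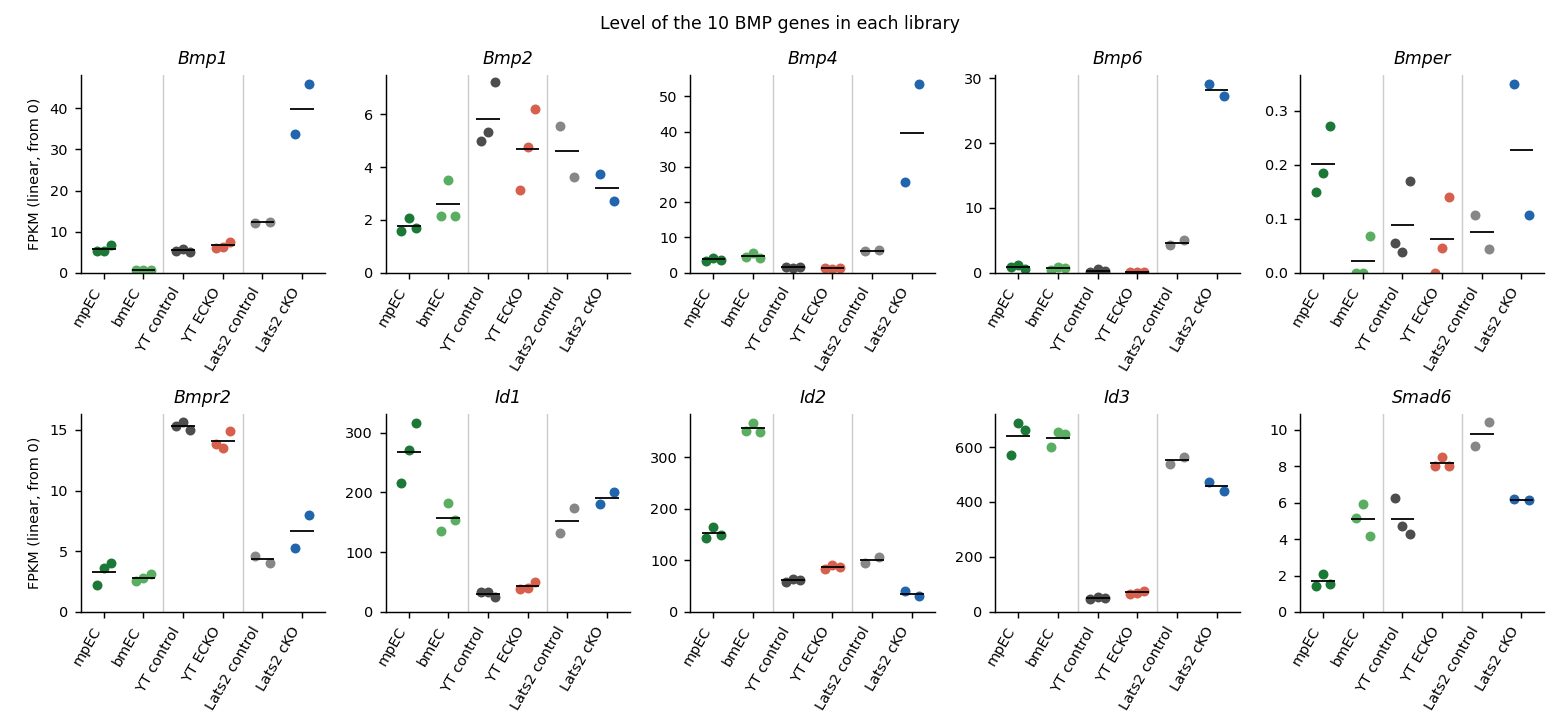
FPKM of the 10 BMP genes in every library, 1 panel a gene with its own linear axis from 0, points for libraries and a black line for each group mean. Bmp1 stands at 5.26 to 6.66 FPKM in mpECs and under 0.6 FPKM in bmECs, and Bmp4 and Bmp6 are highest in the Lats2 cKO libraries; the 3 tables were normalized separately.

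In the comparison of the libraries labelled ECKO with their controls, which was designed to ask what endothelial Yap1 and Taz do, 1 member passed the test: Id2 was higher in the libraries labelled ECKO. Over all genes tested, 1.31% were called, 0.883% higher and 0.424% lower (limma, adjusted p under 0.05). Of the 8 members tested, 4 had an unadjusted p under 0.05, all with higher values in the libraries labelled ECKO (Id1, Id2, Id3 and Smad6), where 9.79% of all genes tested had such a p in that direction. The median log2 difference was 0.36 over the 8 members and -0.00 over all genes tested.

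Id2 measured 57.6, 64.9 and 62.7 FPKM in the controls and 83.8, 90.9 and 88.0 FPKM in the libraries labelled ECKO. The groups were well apart, and the log2 difference was 0.50 (SE 0.09, adjusted p = 0.0406, limma). Id1 measured 33.4, 32.8 and 24.6 FPKM in the controls and 38.0, 40.0 and 50.1 FPKM in the libraries labelled ECKO (log2 difference 0.48, adjusted p = 0.121, limma). Id3 measured 46.7, 55.9 and 49.1 FPKM in the controls against 66.7, 68.8 and 77.2 FPKM (log2 difference 0.48, adjusted p = 0.0626, limma). The ratios of means of Id1, Id2 and Id3 were 1.41, 1.42 and 1.40, and for each gene the lowest library labelled ECKO was above the highest control, while only Id2 passed the adjusted threshold. The Id2 call was held in 6 of the 14 alternatives and was lost in 5 of the 6 fits that left out 1 library, with adjusted p values of up to 0.213 (limma, without ECKO replicate 2). It was kept without ECKO replicate 1.

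Smad6 measured 6.24, 4.71 and 4.28 FPKM in the controls and 8.02, 8.54 and 8.02 FPKM in the libraries labelled ECKO, with no overlap (log2 difference 0.61, SE 0.14, adjusted p = 0.0645, limma). The libraries labelled ECKO lay closer together than the controls, in which replicate 1 was the highest. Without that library the adjusted p of Smad6 was 0.0396, and with the recovered reads in limma's voom it was 0.0413. Bmp1 measured 5.38, 5.84 and 5.07 FPKM in the controls and 6.04, 6.33 and 7.54 FPKM in the libraries labelled ECKO, again without overlap (log2 difference 0.24, adjusted p = 0.328, limma). Groups that did not overlap and were higher were found for 5 of the 8 members and for 12.3% of all genes tested.

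The ligand and receptor genes had differences near or below 0. Bmp2 measured 4.98, 5.31 and 7.23 FPKM in the controls against 3.13, 4.76 and 6.19 FPKM (log2 difference -0.29, adjusted p = 0.503, limma). Bmp4 was at 1.52, 1.44 and 1.60 FPKM in the controls against 1.44, 1.08 and 1.42 FPKM (log2 difference -0.12, adjusted p = 0.733, limma), on between 14 and 22 reads a library. Both overlapped between the groups. Bmpr2 measured 15.3, 15.7 and 14.996 FPKM in the controls and 13.9, 13.5 and 14.9 FPKM in the libraries labelled ECKO (log2 difference -0.11, adjusted p = 0.574, limma), with the groups just apart. Bmp6 (0.0730 to 0.542 FPKM) and Bmper (0 to 0.170 FPKM) were under the test minimum.

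Some cell type markers also differed between these groups: endothelial sums were higher, and osteoblast and B lineage sums were lower. The sums of the other cell type lists overlapped. All 12 endothelial markers had a log2 difference above 0, 11 of them with an unadjusted p under 0.05 and 1 with a call (Cldn5, limma), with a median of 0.30 and sums of 683.7 to 715.5 FPKM in the controls and 870.2 to 1014.7 FPKM in the libraries labelled ECKO. Osteoblast markers summed to 42.2 to 61.8 FPKM in the controls and 13.2 to 31.4 FPKM in the libraries labelled ECKO, with 3 of the 7 tested called lower and Dmp1 at 0 in every library. The 5 B lineage markers summed to 199.9 to 228.2 FPKM in the controls and 160.4 to 165.9 FPKM in the libraries labelled ECKO. Of the 20 immediate early genes tested, 0 were called higher and 1 lower (limma), with 7 higher and 2 lower at an unadjusted p under 0.05. The part of these shifts in the Id and Smad6 values was not tested.

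The comparison of Lats2 cKO with Lats2 Cont was designed to ask what the loss of a kinase that restrains Yap1 and Taz does. In this comparison, 3 members rose (Bmp4, Bmp6 and Bmp1) and 2 fell (Id2 and Smad6). With 9 members tested, 5 were called, and over all genes tested 21.8% were called in either direction (limma, adjusted p under 0.05), 11.8% higher and 9.98% lower. Under the stricter thresholds, 2 of the 9 were called, Bmp1 and Bmp6, and 2.06% of all genes tested, where the same thresholds called 3 of 8 members and 11.7% of all genes in bmECs against mpECs, and 0 of 8 members and 0.00883% of all genes in the libraries labelled ECKO. The median log2 difference was 0.33 over the 9 members and -0.00 over all genes tested.

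Bmp4, a ligand that acts in bone formation and in vessels, measured 6.05 and 6.35 FPKM in Lats2 Cont and 25.7 and 53.6 FPKM in Lats2 cKO. Both cKO libraries were several-fold above both controls, but they differed between themselves more than any other called member did. The log2 difference was 2.41 (SE 0.34, adjusted p = 0.0135, limma), a ratio of means of 6.39. Bmp6, a ligand that liver endothelial cells make and that controls iron through the hormone hepcidin, measured 4.25 and 5.02 FPKM in Lats2 Cont and 29.1 and 27.3 FPKM in Lats2 cKO (log2 difference 2.38, SE 0.14, adjusted p = 0.00573, limma). Its libraries agreed closely within each group, with a ratio of means of 6.09. Bmp2 did not pass the test, at 5.54 and 3.64 FPKM in Lats2 Cont against 3.73 and 2.71 FPKM in Lats2 cKO, where the groups overlapped (log2 difference -0.40, adjusted p = 0.287, limma). Bmp4 and Bmp6 were thus called and Bmp2 was not, while the difference between these ligand genes was not tested.

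Bmp1 rose from 12.1 and 12.3 FPKM to 33.7 and 46.0 FPKM (log2 difference 1.61, SE 0.18, adjusted p = 0.00986, limma). Both cKO libraries were above both controls, and the ratio of means was 3.25. Bmpr2 measured 4.58 and 4.07 FPKM in Lats2 Cont and 5.29 and 7.97 FPKM in Lats2 cKO, apart but with widely spread cKO values (log2 difference 0.50, adjusted p = 0.157, limma). Bmper was under the test minimum, at 0.106 and 0.0443 FPKM in Lats2 Cont against 0.349 and 0.106 FPKM in Lats2 cKO, on between 1 and 6 reads.

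Among the target genes, Id2 fell. It measured 94.8 and 107.3 FPKM in Lats2 Cont and 40.7 and 30.7 FPKM in Lats2 cKO, so that both cKO libraries were less than 0.5 times either control (log2 difference -1.49, SE 0.17, adjusted p = 0.0105, limma). Id1 measured 132.0 and 173.5 FPKM in Lats2 Cont and 180.7 and 200.7 FPKM in Lats2 cKO (log2 difference 0.33, adjusted p = 0.22, limma), and Id3 measured 538.6 and 563.2 FPKM against 473.7 and 439.8 FPKM (log2 difference -0.27, adjusted p = 0.193, limma). Neither Id1 nor Id3 passed the test, although the groups of each were apart. Smad6 measured 9.09 and 10.4 FPKM in Lats2 Cont and 6.20 and 6.14 FPKM in Lats2 cKO (log2 difference -0.58, SE 0.14, adjusted p = 0.041, limma). With 2 libraries a group, 68.2% of all genes tested had groups that did not overlap.

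The Lats2 calls rested on few libraries. Over all fits without 1 library, the log2 difference of Bmp4 ran from 1.89 to 2.92, with both ends reached without a cKO library. That of Bmp6 ran from 2.28 to 2.48. Without Lats2 Cont replicate 1 or without Lats2 Cont replicate 2, no gene in the table was called (2724 and 2879 genes kept an unadjusted p under 0.05, limma), while the log2 differences of Bmp4 were 2.38 and 2.44 and those of Bmp6 were 2.28 and 2.48. The Smad6 call was lost in each fit that left out a library, with the 2 values without a cKO library at an adjusted p of 0.0823 and 0.111, and it was also lost in the fits without a minimum level (adjusted p = 0.0778) without a variance trend (adjusted p = 0.0539) and with a replicate block (adjusted p = 0.0596).

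Other cell types also moved between the Lats2 groups. Pericyte and marrow stroma markers summed to 46.8 to 61.3 FPKM in Lats2 Cont and 108.3 to 109.0 FPKM in Lats2 cKO, with 4 of the 6 tested called higher and none of the 8 at 0 in every library. Osteoblast markers summed to 13.9 to 84.9 FPKM in Lats2 Cont and 43.6 to 69.4 FPKM in Lats2 cKO, with 1 of the 6 tested called (Spp1, higher). Spp1 was the only 1 of the 6 with a log2 difference above 0, and the median of the 6 was -0.50. Summed blood markers were lower in Lats2 cKO. Erythroid markers summed to 2506 to 3760 FPKM in Lats2 Cont and 275.3 to 1425 FPKM in Lats2 cKO. Neutrophil markers summed to 1918 to 2873 FPKM and 702.9 to 843.1 FPKM, and B lineage markers to 74.0 to 86.7 FPKM and 16.4 to 23.5 FPKM. Macrophage and monocyte markers summed to 408.6 to 505.8 FPKM in Lats2 Cont and 67.9 to 285.4 FPKM in Lats2 cKO. Gene by gene this list was mixed: 3 of the 5 tested had a log2 difference above 0, the median was 0.35, and 0 were called. Adipocyte markers summed to 25.1 to 27.5 FPKM in Lats2 Cont and 4.70 to 4.79 FPKM in Lats2 cKO, with 1 of the 2 tested called lower, both at an unadjusted p under 0.05 (limma), and Plin1 and Lep at 0 in every library. Adipocyte markers were higher in bmECs and lower in Lats2 cKO, as Id2, Smad6 and Id4 were. This direction was not particular to adipocyte markers. Of 9 erythroid markers tested, 7 had a log2 difference above 0 in bmECs (1 called) and 0 had one in Lats2 cKO (3 called lower), although erythroid sums overlapped between mpECs and bmECs. In the second table adipocyte sums overlapped, at 1.49 to 4.27 FPKM in the controls and 2.05 to 2.73 FPKM in the libraries labelled ECKO. There, 0 of the 2 adipocyte markers tested were called. The endothelial sum overlapped between the Lats2 groups, at 2887 to 3186 FPKM in Lats2 Cont and 2746 to 2898 FPKM in Lats2 cKO. Of 18 immediate early genes tested, 3 were called higher and 0 lower, with 5 higher and 0 lower at an unadjusted p under 0.05 (limma). The part of these shifts in the BMP gene differences was not tested.

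**Figure D2:**
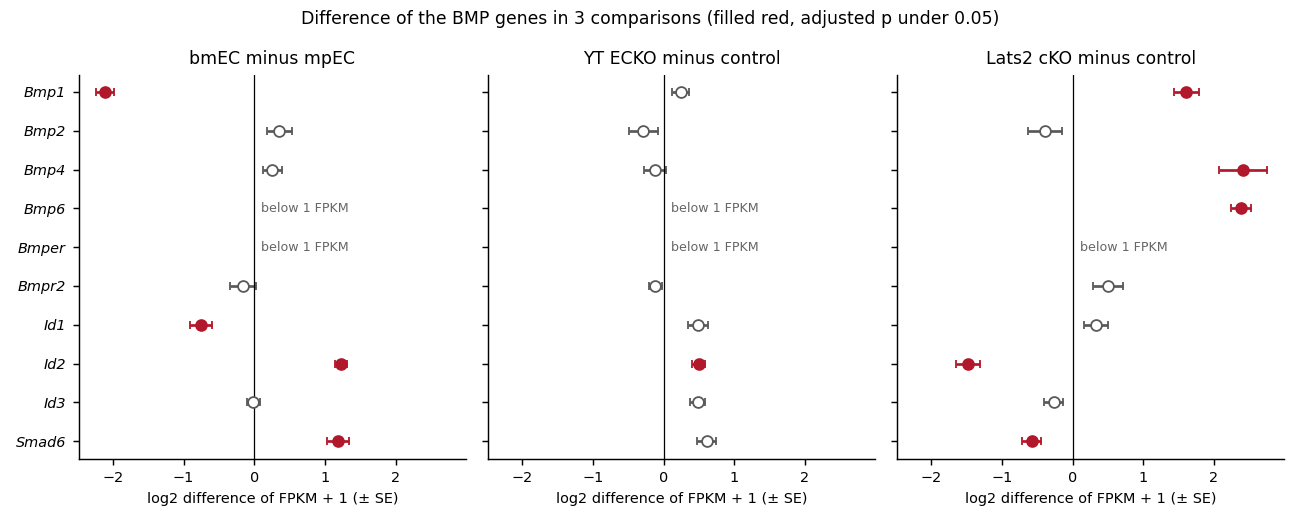
Log2 difference between the groups of each comparison on the log2(FPKM + 1) scale for the tested BMP genes, with bars for 1 standard error and red filled points where the adjusted p was under 0.05. Bmp1 reads -2.11 in bmECs against mpECs and 1.61 in Lats2 cKO against Lats2 Cont, and Id2 reads 1.22, 0.50 and -1.49 in the 3 comparisons.

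**Figure D3:**
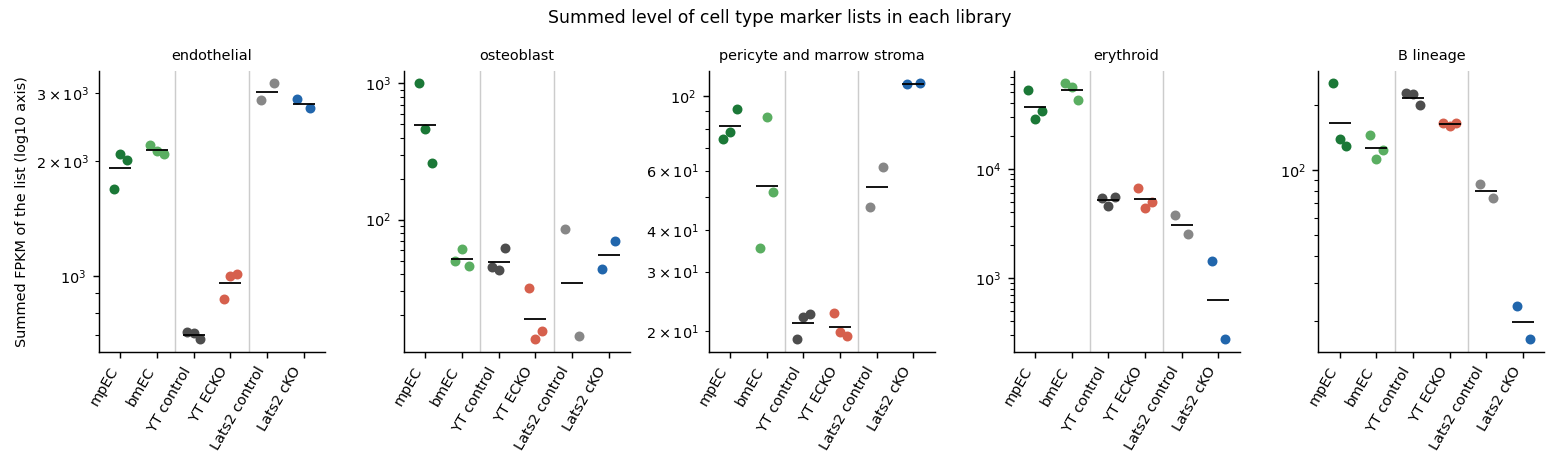
Summed FPKM of marker genes of 5 cell types in every library on a log10 axis, with points for libraries and a line for the geometric mean of each group. Osteoblast markers run from 260.4 to 1000.7 FPKM in mpECs and from 45.6 to 60.9 FPKM in bmECs, and the pericyte and marrow stroma sum is above 100 FPKM in both Lats2 cKO libraries.

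The Id genes were then read as a family. Id4, the remaining member of the family, rose in bmECs (0.931 to 1.57 FPKM in mpECs, 1.91 to 2.78 FPKM in bmECs, log2 difference 0.60, adjusted p = 0.0362, limma) and fell in Lats2 cKO (10.4 and 14.9 FPKM in Lats2 Cont, 1.92 and 2.90 FPKM in Lats2 cKO, log2 difference -1.997, adjusted p = 0.0108, limma). The bmEC call of Id4 was held in 7 of 13 alternatives and lost in 5 of the 6 fits without 1 library, all but the one without mpEC replicate 2 (adjusted p up to 0.12, limma). In the libraries labelled ECKO Id4 measured 3.87 to 6.08 FPKM against 2.63 to 3.30 FPKM in the controls (log2 difference 0.65, adjusted p = 0.0785, limma). The order of levels was Id3, Id1 and Id2 in mpECs and in both Lats2 groups, Id3, Id2 and Id1 in bmECs, and Id2, Id3 and Id1 in both groups of the second table, and in no group did the library ranges of neighbours in these orders overlap. The 4 genes together summed to 931.7 to 1128 FPKM in mpECs, 1089.5 to 1208 FPKM in bmECs and 674.1 to 858.9 FPKM over the Lats2 libraries, but to 139.2 to 220.8 FPKM over the second table. The tables were normalized separately, and the cause of this gap was not tested.

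The level of Id2 relative to Id1 does not depend on the scaling of a library. The ratio of Id2 to Id1 was 0.667, 0.610 and 0.470 in mpECs and 2.58, 2.02 and 2.28 in bmECs, so that the order of the genes turned between the regions. The mean log2 ratio differed by 1.99, a description that puts a called gene over another called gene. In Lats2 Cont the ratio was 0.718 and 0.619 and in Lats2 cKO it was 0.225 and 0.153, with a mean log2 difference of -1.85. In the second table the ratio was 1.72, 1.98 and 2.54 in the controls and 2.20, 2.28 and 1.76 in the libraries labelled ECKO, which overlapped fully (mean log2 difference 0.01). No test of the ratio is given.

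**Figure D4:**
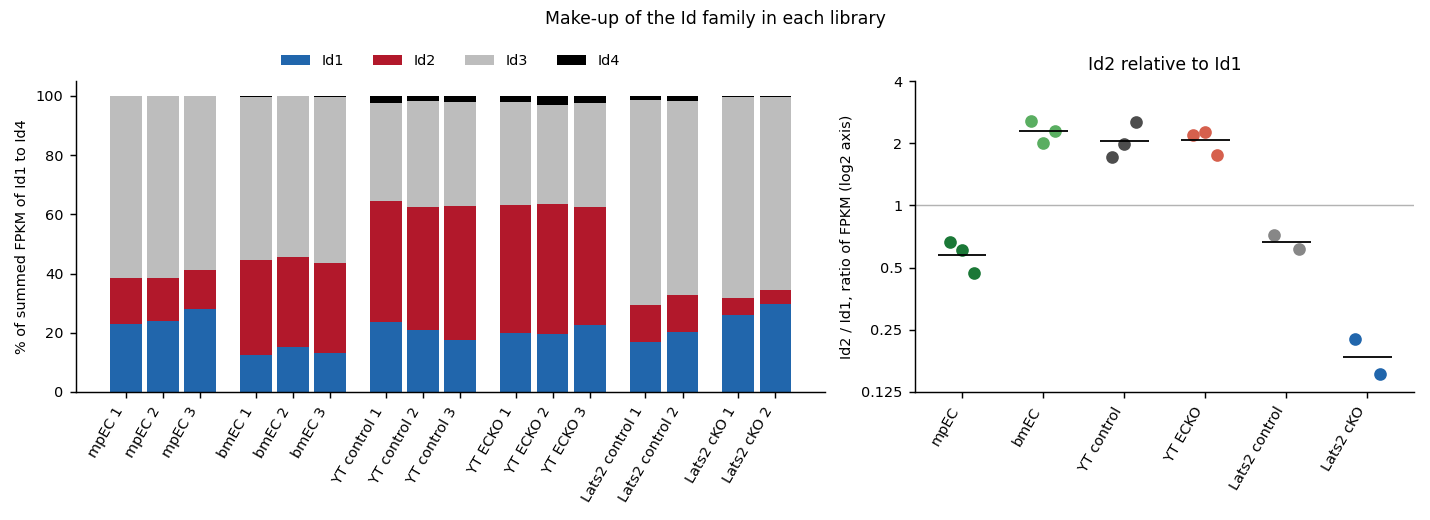
Share of each Id gene in the summed FPKM of Id1 to Id4 for every library as stacked bars, and the ratio of Id2 to Id1 for every library on a log2 axis with a line for each group's geometric mean. The ratio lies between 0.470 and 0.667 in mpECs, between 2.02 and 2.58 in bmECs, and at 0.225 and 0.153 in Lats2 cKO.

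A list of 53 other genes of the pathway was read by role. In bmECs against mpECs, where 13.0% of all genes tested were called higher and 10.5% lower, 22 of the list were tested. Of these, 3 rose and 6 fell, with a median log2 difference of 0.04 over the 22. The genes that rose were Crim1, a membrane protein that tethers BMPs (0.78, adjusted p = 0.0146), Acvr2a, a type II receptor (0.74, adjusted p = 0.0084), and Id4 (limma in each case). Those that fell were led by the secreted protein gene Fstl1, from 142.0 to 159.1 FPKM in mpECs to 18.9 to 21.7 FPKM in bmECs (log2 difference -2.86, adjusted p = 2.58e-06, limma). Hey1, a transcription factor gene shared with Notch signaling (-1.73), the homeobox gene Msx1 (-1.21), Pcolce, which enhances the procollagen protease encoded by Bmp1 (-1.05), Smad7 (-0.46) and the pseudoreceptor gene Bambi (-0.45) were also called lower. Pcolce thus fell in the same comparison as Bmp1. The Smad7 call was held in 7 of 13 alternatives and lost in 5 of the 6 fits without 1 library, all but the one without mpEC replicate 1 (adjusted p up to 0.0928, limma).

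In the libraries labelled ECKO, 19 of these genes were tested and 0 were called by limma, where 1.31% of all genes tested were. At an unadjusted p under 0.05 (limma), 8 were higher and 0 lower, where 9.79% of all genes tested were higher. Voom on recovered reads called 2 of the 19, and 389 of all 11310 genes. Of the 19, 17 had a log2 difference above 0, where 48.9% of all genes tested did, and the median was 0.25. Smad7 measured 15.4 to 26.1 FPKM in the controls and 30.7 to 47.5 FPKM in the libraries labelled ECKO (log2 difference 0.88, SE 0.20, adjusted p = 0.0654, limma). Bambi had a log2 difference of 0.48 and the transcription factor gene Atoh8 one of 0.57, with adjusted p values of 0.0847 and 0.0899 (limma). None of these passed the threshold.

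In Lats2 cKO, where 11.8% of all genes tested were called higher and 9.98% lower, 25 of the list were tested. Of these, 5 rose and 3 fell, with a median log2 difference of 0.05 over the 25. Tll1, a tolloid protease of the Bmp1 family, went from 0.489 and 1.02 FPKM to 3.98 and 5.58 FPKM (log2 difference 1.72, adjusted p = 0.0157, limma). It reached the test minimum only through the cKO libraries, and its call was lost without cKO replicate 2. Tll2, the other tolloid gene of the list, was not tested. Pcolce went from 2.81 and 3.21 FPKM to 12.3 and 12.9 FPKM (log2 difference 1.76, adjusted p = 0.0073, limma). Msx1 (1.24), Fstl1 (1.23) and Crim1 (1.06) also rose, and Id4 and Bambi (-0.76) fell, together with the type I receptor gene Acvr1 (-0.55, adjusted p = 0.0498, limma). Without Lats2 Cont replicate 1, and likewise without replicate 2, each of these calls was lost. The Acvr1 call was held in 3 of 12 alternatives and lost, among others, in each fit without 1 library (adjusted p up to 0.285, limma), Msx1 was held in 6 of 12 and lost in each of those fits, and Bambi was held in 7 of 12 and lost also without cKO replicate 2 (adjusted p up to 0.243, limma). Bmp1, Pcolce, Fstl1 and Msx1 were called lower in bmECs and higher in Lats2 cKO. Over all genes tested in bmECs against mpECs, 10.5% were called lower and 13.0% higher, beside the Lats2 shares given above. The share of all genes called in both comparisons, in the same or in opposite directions, was not counted. Opposite calls are thus not shown to be particular to BMP genes. The authors reported strong downregulation of a selected set of marrow endothelial genes in the Lats2 mutants. Crim1 was called higher in both comparisons, and Id4 was called higher in bmECs, with the losses given above, and lower in Lats2 cKO, as Id2 and Smad6 were.

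The receptors and transducing Smads are given whether or not they were called. Acvrl1 measured 13.8 to 16.2 FPKM in mpECs and 16.9 to 17.7 FPKM in bmECs (log2 difference 0.20, adjusted p = 0.149, limma), 17.3 to 18.8 FPKM in controls and 22.7 to 25.8 FPKM in libraries labelled ECKO (0.39, adjusted p = 0.0785), and 48.1 to 50.4 FPKM over the Lats2 libraries (-0.01, adjusted p = 0.947). The coreceptor gene Eng was the most abundant of the receptor genes, at 166.4 to 279.9 FPKM in the first table, 50.8 to 72.9 FPKM in the second and 504.2 to 531.7 FPKM in the third, with log2 differences of 0.31, 0.13 and -0.05 and adjusted p values of 0.155, 0.652 and 0.777 (limma). Acvr1 measured 2.71 to 4.61 FPKM in the first table and 1.10 to 1.90 FPKM in the second, with a log2 difference of 0.18 in each and no call, and 7.08 and 7.94 FPKM in Lats2 Cont against 4.74 and 4.83 FPKM in Lats2 cKO, where it was called lower as given above. Bmpr1a stayed under 1 FPKM in all libraries and Bmpr1b was listed at 0 in all 16.

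Smad1 had log2 differences of 0.26, 0.27 and 0.06 in the 3 comparisons and Smad5 of 0.24, 0.07 and -0.24, and Smad4, the partner of both, of -0.02, 0.20 and -0.43. None of the 9 values passed the threshold, the nearest being Smad4 in Lats2 cKO, at 67.8 and 71.8 FPKM in Lats2 Cont and 48.5 and 55.1 FPKM in Lats2 cKO (adjusted p = 0.0648, limma). It was called in 2 of 12 alternatives, quantile scaling and voom (adjusted p down to 0.0407). Smad7 was not called in Lats2 cKO either (0.15, adjusted p = 0.669, limma). Of 11 other BMP and Gdf ligand genes, 0 reached the test minimum in the first 2 tables and 1, Bmp8b, reached it in the third, at 3.47 and 4.71 FPKM in Lats2 Cont and 4.04 and 4.44 FPKM in Lats2 cKO (log2 difference 0.05, adjusted p = 0.862, limma). Gdf2, which encodes the circulating ligand BMP9, and Gdf7 were listed at 0 in every library. The 11 together summed to 0.0313 to 0.911 FPKM in the libraries of the first table, 0.258 to 0.888 FPKM in the second and 3.58 to 5.51 FPKM in the third.

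**Figure D5:**
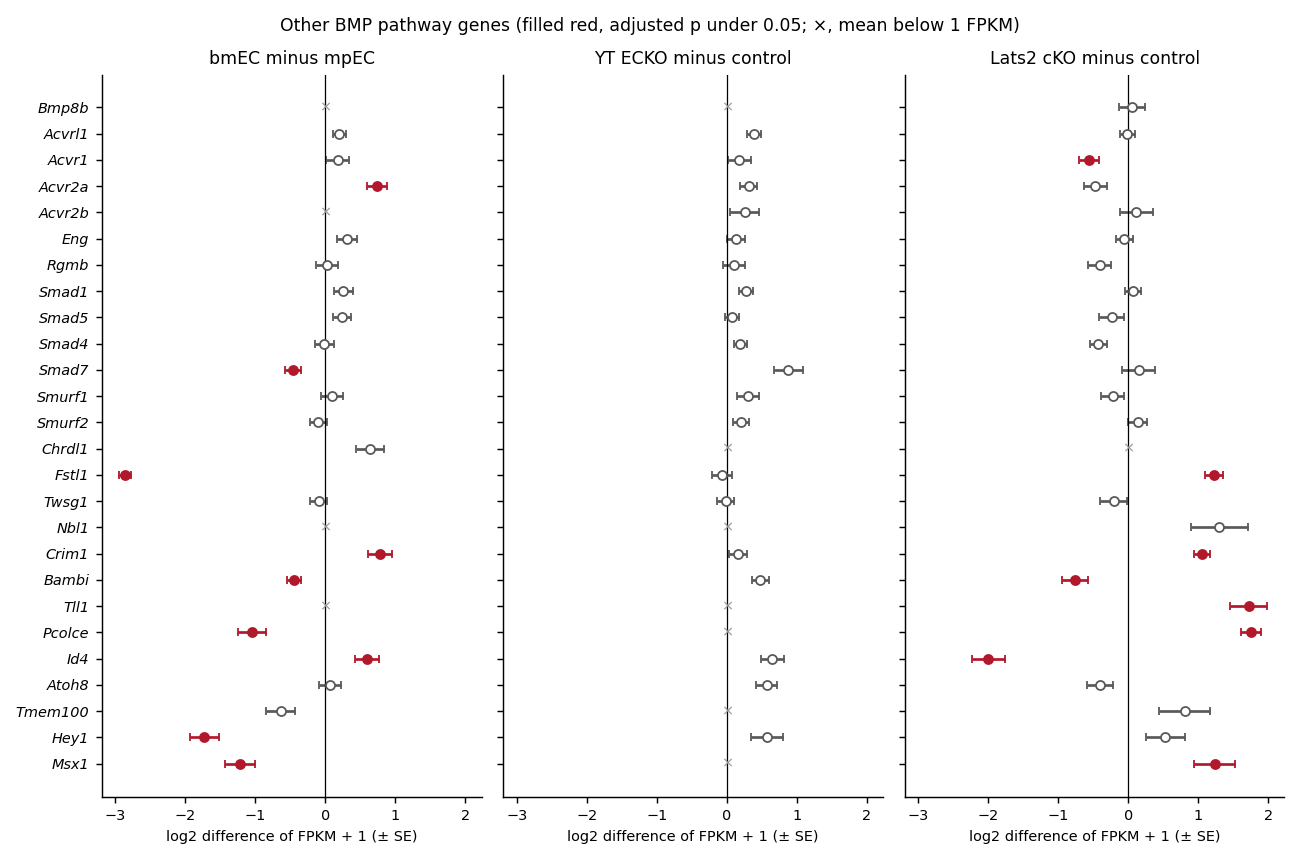
Log2 difference, on the log2(FPKM + 1) scale, of the other genes of the pathway that were tested in at least 1 of the 3 comparisons. Bars show 1 standard error, red filled points an adjusted p under 0.05 (limma), and × a mean below 1 FPKM. Fstl1 reads -2.86 in bmECs and 1.23 in Lats2 cKO, and Id4 reads 0.60 and -1.997.

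The genes most like Id1, Bmp4 and Smad6 were listed as a description, by Pearson's r of log2(FPKM + 1) over the 16 libraries among 9069 genes tested in all 3 comparisons. The libraries share tables and depth, and a list that takes the 5 highest of so many holds high values by its making. With group means removed, Id1 was most like Rftn2 (0.93), Trio (0.91), Col4a1 (0.90), Slc25a25 (0.88) and Plxna2 (0.87), Bmp4 most like Erich1 (0.91), Ubxn4 (0.89), Adh1 (0.87), Pura (0.86) and Samd4 (0.85), and Smad6 most like Calr (0.90), Rhot1 (0.89), Itga1 (0.87), Sos1 (0.86) and Lalba (0.86). With only table means removed, so that group differences count, Id1 was most like the receptor gene Flt1 (0.94), Dusp8, N4bp3 and Bcl6b (0.92 each) and Ltbp4 (0.91). Bmp4 was then most like Mgp, which encodes matrix Gla protein (0.96), and Ndufa3, Myl12b, Ankrd37 and Mtmr10 (0.95 each), and Smad6 was most like Map1lc3b and Acvr2a (0.97 each) and Elovl5, Tmcc3 and Ube2j1 (0.96 each). The 2 lists of a gene shared no name, and Smad6 and Id2 had an r of 0.87 by table and 0.19 within groups.

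The promoter of Smad6 is shown because Smad6 and Id2 moved together in direction, up in bmECs and down in Lats2 cKO, and that of Bmp4, chosen after its values were seen, because it had the highest ratio of means in Lats2 cKO. Sequences are the 250 bases before the RefSeq start on GRCm38.p6, 5′ to 3′ on the strand of the gene, at chr9:64022060-64022309 (minus strand) for Smad6 and chr14:46390670-46390919 (minus strand) for Bmp4, and neither overlaps an annotated exon. RefSeq promoters were matched for 7 of the 10 genes, all but Bmp1, Bmp2 and Id1. Capitals mark matches on either strand to motifs bound by Smads in BMP target genes: GGCGCC, which is its own reverse complement, GGAGCC, which reads GGCTCC from the other strand, and CGTCT, which then reads AGACG.
Smad6: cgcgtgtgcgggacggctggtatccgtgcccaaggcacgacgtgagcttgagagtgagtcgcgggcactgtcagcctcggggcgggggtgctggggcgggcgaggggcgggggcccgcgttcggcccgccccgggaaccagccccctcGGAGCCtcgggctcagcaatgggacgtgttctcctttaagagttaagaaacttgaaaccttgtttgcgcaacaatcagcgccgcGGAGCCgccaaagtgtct
Bmp4: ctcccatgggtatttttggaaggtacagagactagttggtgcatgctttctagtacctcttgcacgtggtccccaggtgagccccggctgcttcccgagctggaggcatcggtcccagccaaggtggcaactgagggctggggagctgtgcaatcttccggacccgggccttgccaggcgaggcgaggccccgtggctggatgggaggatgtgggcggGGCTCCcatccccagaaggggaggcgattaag

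Smad6 held 2 copies of GGAGCC, 102 to 97 and 18 to 13 bases before the start, and Bmp4 held 1 on the other strand, 32 to 27 bases before it. GGAGCC in either orientation was found in 26.0% of the 32851 RefSeq promoters of the same length, GGCGCC in 9.59% and CGTCT in 17.4%. The window of Id2 lies in annotated exons over 161 of its 250 bases and that of Id3 over all 250. For these genes only the sites with their nearest bases are shown. They lie at chr12:25096306-25096335, chr12:25096163-25096192 and chr12:25096099-25096127 (Id2, minus strand) and at chr4:136143623-136143652 (Id3, plus strand).
Id2 GGCGCC site: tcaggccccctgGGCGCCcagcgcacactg
Id2 GGAGCC site: gtatgatggacgGGAGCCcttccaccaatg
Id2 CGTCT site: agtgcacataaaAGACGccccgcccggct
Id3 GGAGCC site: cctcgcatccgaGGCTCCgctgtcctcggc

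Id2 held 1 copy of each of the 3 motifs, and Id3 held 1 copy of GGAGCC. Whether the number of matches goes with a call was not tested. Of the other promoters, Bmper held 3 copies of GGAGCC and 1 of CGTCT, Bmpr2 1 of GGCGCC and Bmp6 1 of CGTCT. The windows of Bmpr2 and Bmp6 lie wholly in annotated exons. A match describes the letters in this window and is not a bound site.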

How the data were processed

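RNA of flow-sorted bone endothelial cells was made into stranded total RNA libraries (TruSeq, paired-end) by the authors, who mapped reads to mm10 (GRCm38) with TopHat and counted them with HTSeq 0.6.1. The deposited values are FPKM per gene, and the tool that made the FPKM is not given in the sources used here. DESeq2 is named in the submitters' processing notes and was used by the authors. Every column was matched to a sample, and replicates keep their labelled numbers.

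Each of the 3 tables was fitted alone with limma 3.58.1 in R 4.3.3 on log2(FPKM + 1), with a variance trend, genes whose mean reached 1 FPKM, a two-sided test and Benjamini-Hochberg adjustment over all 11422, 11320 and 12453 genes tested. A call is an adjusted p under 0.05. A log2 difference is on the log2(FPKM + 1) scale, which understates the change of low genes. The study's methods test counts, whereas FPKM are not counts. Reads were recovered from FPKM steps and GENCODE exon lengths only as an approximation (51.7% to 70.1% of values of at most 20 reads came within 0.02 of a whole read) and entered voom as an alternative. Other alternatives were a pseudocount of 0.1, minimums of 5 FPKM and none, quantile and median ratio scaling, no trend, a replicate block, thresholds of adjusted p under 0.01 with an absolute log2 difference over 0.5, and leaving out each library. The scripts were tested on simulated data. Tables and plots used Python 3.11.15, pandas 2.3.3, numpy 2.4.6, scipy 1.17.1 and matplotlib 3.10.9.

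The members and the gene lists were chosen with earlier results of these data known. All members are named. From the 53 other genes, up to 8 called genes with the largest differences per comparison are named, together with the type I receptors, Eng, Smad1, Smad4, Smad5 and Smad7, and others where stated by role or nearness to the threshold, chosen after their values were seen. Depth limits Bmper, and Bmp6 in the first 2 tables, to few reads.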

Additional observations from a re-analysis of the deposited data

How the results depend on the processing

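Over the members, 111 of 115 single-gene values kept direction and side of the threshold for bmECs against mpECs, 105 of 119 for the libraries labelled ECKO and 98 of 116 for Lats2 cKO. In bmECs against mpECs, calls over all genes went from 2682 to 1335 with the stricter thresholds and to 1817 to 2357 without 1 library, the members called from 4 to 2 with the minimum of 5 FPKM (3 members tested) and stayed at 4 without any 1 library, and the other pathway genes called from 9 to 5 under either of these settings and to 6 to 9 without 1 library. For the libraries labelled ECKO, 148 calls became 1 with no minimum, 17 with no trend, 45 with the replicate block, 389 with voom on recovered reads, 1 with the stricter thresholds and 1 to 293 without 1 library. The members called there went from 1 to 2 with the minimum of 5 FPKM, 0 with no minimum, no trend, the replicate block or the stricter thresholds, 3 with voom and 0 to 2 without 1 library, and the other pathway genes from 0 to 2 with voom and 0 to 3 without 1 library (3 without ECKO replicate 1). For Lats2 cKO, 2711 calls became 1389 with no minimum, 257 with the stricter thresholds and 0 to 2701 without 1 library (933 without cKO replicate 2). The 5 members called became 2 with the stricter thresholds and 0 to 4 without 1 library, and the 8 other pathway genes 5 with no minimum or no trend, 3 with the stricter thresholds and 0 to 6 without 1 library. In fits with 1 library in a group, that library is assumed to vary like the other group. The causes were not tested.

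Log2 differences that changed sign were all uncalled. For bmECs against mpECs these were Id3 (-0.090 to 0.043 without 1 library), Smad4 (-0.13 to 0.083), Yap1 (-0.091 to 0.047, and 0.074 with quantile scaling) and Lats2 (-0.056 to 0.091). For the libraries labelled ECKO it was Yap1 (-0.14 to 0.077), and for Lats2 cKO Acvrl1 (-0.045 to 0.021), Smad7 (-0.15 to 0.45) and Smad1 (-0.039 with quantile scaling).

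The sources used here do not say that a replicate number marks a shared animal or day, and the numbers were treated as not pairing the libraries, since not every pair correlated over 0.1. The deviations of same-numbered libraries correlated at 0.31, 0.09 and 0.10 in the first table, at -0.18, -0.12 and -0.16 in the second and at 0.07 in the third. In the first table not every library correlated best with its own number. With the replicate block, calls numbered 3072, 45 and 2655 over all genes, 4, 0 and 4 over the members (Id2 lost in the second, Smad6 in the third) and 9, 0 and 8 over the other pathway genes, for the 3 comparisons in order.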
